A study of Mus musculus with 12 samples.

Results

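Peaks of dimethylated lysine 36 of histone H3 (H3K36me2) that lie close together in the mouse cortex were described here across 43 small regions of the genome. A peak was counted as clustered if at least 3 other peaks of either genotype lay within 100 kb of it. Peaks in 4 larger regions, at Sp110 on chromosome 1, at Sfi1 on chromosome 11 and at 2 sites on chromosome 5, were left out. The members were thus chosen by peak density. The rule kept 230 of 3722 peaks, 40 of 231 from control mice (Ctrl) and 190 of 3491 from conditional knockouts (cKO). Clustered peaks under 200 kb apart were joined into regions. The rule used peak positions of both lists, so peak density and the numbers per region are descriptions and were not tested.

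The series held 12 libraries of chromatin immunoprecipitation and sequencing from somatosensory cortex of mice aged 2.5 months, in 4 groups of 3. H3K36me2 chromatin and input chromatin were each sequenced from controls and from animals labelled Nsd1Nex-cKO. In each control group 2 libraries were labelled Nsd1fl/+ and 1 Nsd1fl/fl, so floxed alleles of Nsd1 were present in the controls as well. Cre under the Nex promoter is active in excitatory neurons of the forebrain after their last division, so the other cell types in the dissected tissue keep the gene. One peak list stood for each genotype and was named by all 6 of its libraries. No value therefore carried a replicate error, no p-value was computed, read depth was unknown, and the lists could not check the tissue label against marker genes.

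H3K36me2 is laid down by methyltransferases that include NSD1, and in most cell types it forms broad domains over genes and the stretches between them rather than narrow peaks. Mouse chromosomes have their centromere at one end, and the assembled sequence begins beside it, next to long arrays of satellite repeats. Multicopy gene families, such as zinc finger genes and vomeronasal receptors, lie in tandem arrays of near-identical copies. A short read from such sequence can match several places, and the sources used here do not say how such reads were treated.

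Of 79 RefSeq promoter windows inside the regions (300 bases, GRCm38.p6, which shares its coordinates with mm10), 2 (2.53%) touched a clustered peak, and they are shown for that reason. Among all 32851 annotated windows, 26 (0.0791%) touched a listed peak, clustered or not. The spans were drawn around dense peaks, so a higher share inside them follows from the rule and was not tested. The 2 windows in the regions are promoters of genes in multicopy neighbourhoods, and the peak in each came from the cKO list. The first starts Gm46898 in the zinc finger cluster of chromosome 4 (chr4:147411472-147411771, plus strand). The second starts Gm15319, a protein-coding gene of chromosome 8 (chr8:20363153-20363452, minus strand). Capitals mark the bases under the peak, 117 in the first window and 180 in the second.
Gm46898: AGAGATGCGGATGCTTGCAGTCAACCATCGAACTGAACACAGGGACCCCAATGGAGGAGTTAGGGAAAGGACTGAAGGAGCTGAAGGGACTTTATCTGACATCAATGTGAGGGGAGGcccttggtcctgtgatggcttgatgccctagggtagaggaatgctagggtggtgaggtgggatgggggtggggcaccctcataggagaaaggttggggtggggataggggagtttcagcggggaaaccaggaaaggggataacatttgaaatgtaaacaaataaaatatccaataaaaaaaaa
Gm15319: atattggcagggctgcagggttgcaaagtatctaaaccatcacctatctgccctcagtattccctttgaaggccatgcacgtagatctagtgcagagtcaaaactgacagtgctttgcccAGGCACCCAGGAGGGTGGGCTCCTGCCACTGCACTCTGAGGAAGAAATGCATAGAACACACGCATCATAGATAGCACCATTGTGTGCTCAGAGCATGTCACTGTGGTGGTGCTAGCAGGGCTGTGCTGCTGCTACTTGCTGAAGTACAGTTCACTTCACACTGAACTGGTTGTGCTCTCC

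The second window had exact copies. The 300 bases of Gm15319 were matched at 300 of 300 positions by the windows of Gm21119 (chromosome 8, 20614677 to 20614976) and of 4930467E23Rik (chromosome 8, 19729326 to 19729625). The peak over Gm15319 ran from -130 to 446 bp relative to its start, with a fold enrichment of 2.36, which is the authors' ratio of signal to local background. At Gm21119 the nearest clustered peak downstream of the start lay from 1154 to 1374 bp, with a fold of 2.19. No clustered peak lay within 40 kb of the start of 4930467E23Rik, which is outside the regions, but 2 listed peaks that were not clustered did, the nearest 1.90 kb from its window. Of the 3 identical windows, 1 was itself touched by a listed peak. Over all windows in the regions, 10 of 79 (12.7%) shared at least 50% of their 16-base words with the window of another gene, and among all annotated windows 1747 of 32851 (5.32%) did.

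The 43 regions lay on 18 chromosomes, spanned 3412 kb in all and were mostly short. Their median length was 47.5 kb, from 147 bp for a single peak to 677 kb on chromosome 8. Clustered peaks of both lists occurred in 18 regions, 25 held clustered peaks of cKO alone and 0 of Ctrl alone. Of the 25, 22 also had no other Ctrl peak within 100 kb. Counts are of clustered peaks throughout; the spans of 3 regions, at Coa7, Prss36 and Glod5, held 4 further peaks with too few neighbours to be members. There were more cKO than Ctrl peaks in 41 regions, equal numbers at Gm51572 on chromosome 8, and more Ctrl peaks in the Ly6 region of chromosome 15. The cKO list was the longer one throughout: it had 4.75 peaks per Ctrl peak in these regions, 1.31 in the larger regions left out and 27.6 outside clusters.

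**Figure D1:**
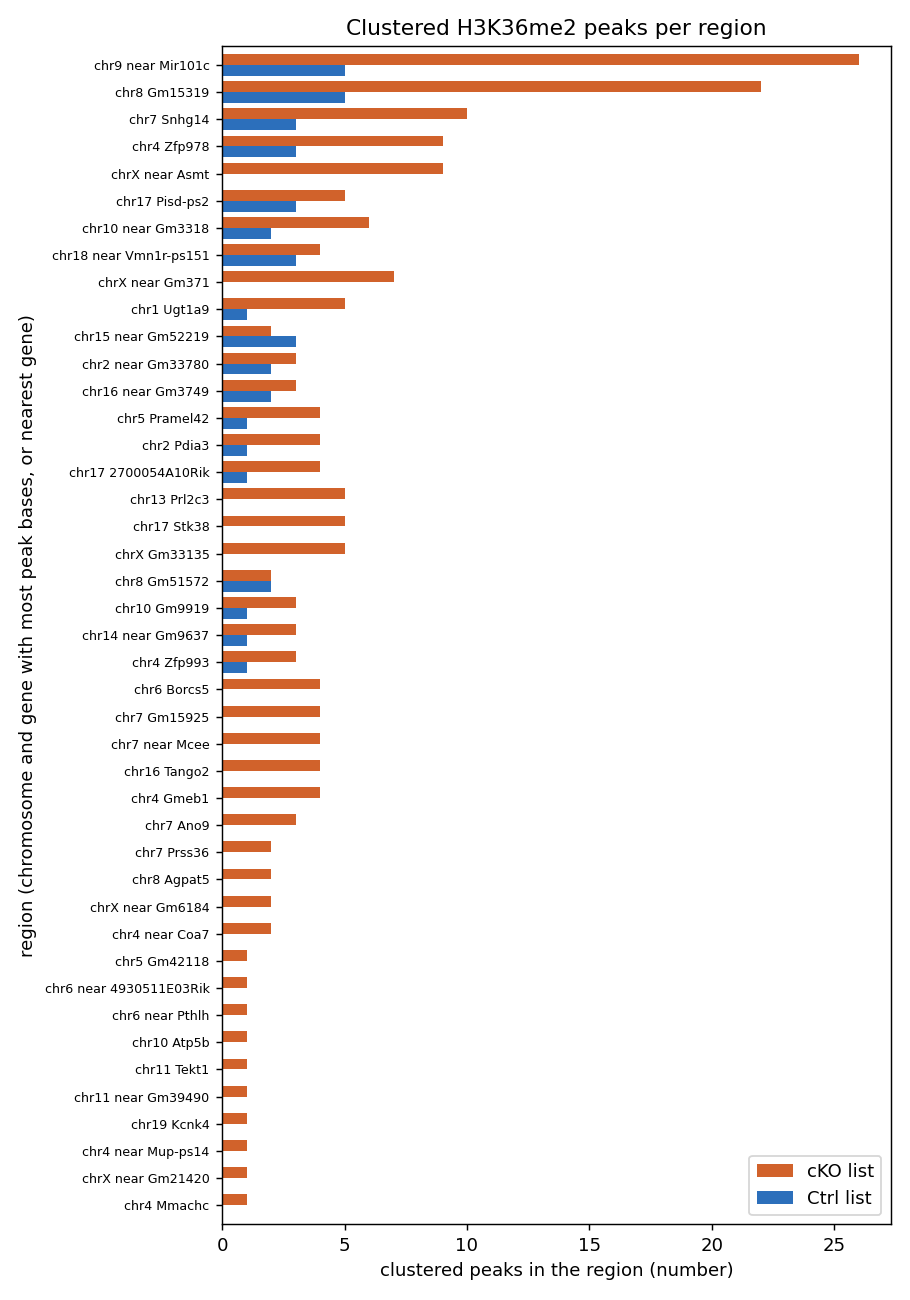
Clustered peaks per region, with the number of peaks on the horizontal axis and 1 row per region for all 43 regions, Ctrl and cKO drawn as separate bars. The chromosome 9 region leads with 5 Ctrl and 26 cKO peaks, followed by the Gm15319 region of chromosome 8 with 5 and 22.

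The working name of the set, repeats and gene families, held in part. Repeat annotation was not used here, so repeats could be judged only through genes and promoter copies. By the annotation, 9 regions had at least 3 genes of 1 symbol stem within 100 kb, 5 others began within 500 kb of base 3 Mb at the centromeric end, and another 9 had no gene in their span. The other 20 fitted none of these groups. The share of all peaks at centromeric ends was not computed. Some of the regions without a gene were single peaks, and over all peaks 48.5% of Ctrl and 51.7% of cKO overlapped no gene. Symbols that start with Gm or LOC or end in Rik were given no stem. The Gm15319 region with its promoter copies was therefore among the 20, as were the regions at Prl2c3 and Pira1. The region at Ythdf2 and Gmeb1 counted among the 9 through small nucleolar RNA genes. Within 100 kb of at least 3 genes of 1 stem lay 9 Ctrl members (22.5%, all Ctrl peaks 18.6%) and 28 cKO members (14.7%, all cKO peaks 8.14%). A pseudogene lay within 100 kb of 32 Ctrl members (80.0%, all Ctrl peaks 74.9%) and 123 cKO members (64.7%, all cKO peaks 54.1%). Pseudogenes made up 47 of 188 genes in the spans (25.0%) and 21.2% of all 49943 genes.

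Gene families were looked up by symbol, from a list of families with tandem copies that also held microRNA, transfer RNA and other small RNA genes. Of 18 regions with a gene of a listed family within 100 kb, 7 had a microRNA gene there. The shares below are therefore not of tandem families alone. Of 41 listed families, 11 had a gene within 100 kb of a region. By symbol, clustered peaks lay inside genes of only 5: zinc finger (Zfp), UDP glucuronosyltransferase (Ugt), vomeronasal type 2 (Vmn2r), Pramel and prolactin-related (Prl) genes. A Ctrl peak also overlapped Gm26246, a small nucleolar RNA gene whose symbol the list did not match. The listed histone family (Hist) matched 0 genes. A gene of a listed family lay within 100 kb of 42.5% of clustered Ctrl peaks, where the share over all Ctrl peaks was 31.2%. For cKO peaks the shares were 44.2% and 23.6%. The peaks of the chromosome 9 region counted here through 1 microRNA gene, Mir101c. Without that region the shares were 12 of 35 (34.3%) for Ctrl, near that of all Ctrl peaks, and 58 of 164 (35.4%) for cKO. Neighbouring peaks share their genes, so these shares rest on few regions.

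Clustered peaks were mostly outside genes. No gene was overlapped by 27 of 40 Ctrl peaks (67.5%, with 48.5% over all Ctrl peaks) and by 123 of 190 cKO peaks (64.7%, with 51.7% over all cKO peaks). Among these were the 5 Ctrl and 26 cKO peaks of the chromosome 9 region and 9 cKO peaks of an X chromosome region near Asmt. The shares thus rest in part on a few regions without a gene. A protein-coding gene was overlapped by 6 Ctrl peaks (15.0%, all Ctrl 39.8%) and 48 cKO peaks (25.3%, all cKO 39.3%). A long noncoding RNA gene was overlapped by 4 Ctrl members (all Ctrl 6.49%) and 16 cKO members (8.42%, all cKO 8.02%), and a pseudogene by 3 (all Ctrl 6.93%) and 9 (all cKO 2.72%). No gene at all lay within 100 kb of 0 Ctrl members (all Ctrl 3.03%) and 9 cKO members (4.74%, all cKO 4.93%). In all 57 genes were hit, 42 of them protein-coding. Clustered peaks of both lists were found in 5 protein-coding genes, Mroh2a, Pdia3, Zfp993, Pramel42 and Gm51572.

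Clustered peaks had lower median folds and larger median widths than peaks outside clusters, in both lists. The median fold was 1.87 (95% interval from order statistics 1.60 to 2.29) for clustered Ctrl peaks and 2.67 for Ctrl peaks outside clusters. For cKO it was 2.31 (2.14 to 2.404) and 2.85. A fold under 2 was given to 24 Ctrl members (all Ctrl peaks 39.4%) and 74 cKO members (all cKO peaks 5.56%). The median width was 344.5 bp for clustered and 218.5 bp for other Ctrl peaks outside the larger regions, and 310 and 243 bp for cKO. In the larger regions left out, the median fold was 1.83 for Ctrl and 1.95 for cKO peaks. Their median widths were 397 and 429.5 bp. Low fold and large width were thus not particular to the small clusters. A width of at least 500 bp was reached by 11 Ctrl members (all Ctrl 20.3%) and 37 cKO members (all cKO 8.22%). Intervals cover counting error and treat neighbouring peaks as independent.

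Low fold went with strong p-values at a few sites. A q-value, the caller's adjusted p, under 0.05 was given to 16 of 40 clustered Ctrl peaks (40.0%, all Ctrl peaks 9.96%) and 72 of 190 clustered cKO peaks (37.9%, all cKO peaks 18.4%). A -log10 q of at least 5 was reached by 10 Ctrl members (all Ctrl 4.76%) and 44 cKO members (all cKO 2.92%). A -log10 q of at least 100 was reached by 3 Ctrl members (all Ctrl 1.73%) and 19 cKO members (all cKO 0.573%), which were 22 of the 24 such peaks in both lists. These 22 lay in 3 regions, on chromosomes 2, 9 and 14, with folds of only 1.15 to 2.00. Without those 3 regions, 8 of 32 Ctrl members (25.0%) and 40 of 158 cKO members (25.3%) had q under 0.05.

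**Figure D2:**
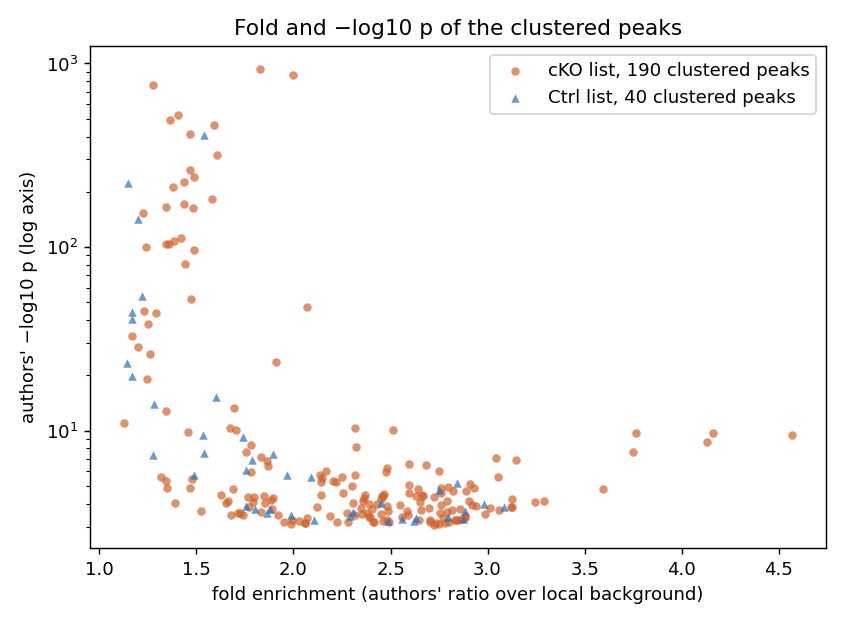
Fold enrichment (horizontal axis) against the caller's -log10 p (vertical axis, log scale) of the 40 Ctrl and 190 cKO clustered peaks, 1 point per peak. The clustered peaks of the largest -log10 p stand at folds of at most 2.00. The clustered peaks of fold 3 or more stay at a -log10 p of at most 9.73, and their -log10 q, not drawn, at most 5.14.

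The gene-poor region of chromosome 2 held the strongest p-values of the clusters. It ran for about 5 kb (98662271 to 98667216) with no gene in its span, and the nearest, the noncoding Gm33780, was 35.4 kb away. Its 2 Ctrl peaks had folds of 1.54 and 1.15 with -log10 q of 402 and 216. The 3 cKO peaks had folds of 1.83, 2.00 and 1.28 with -log10 q of 929, 862 and 752. Both Ctrl peaks were overlapped by cKO peaks, and the third cKO peak, the one of fold 2.00, lay between them with no Ctrl partner.

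A region of similar make-up stood on chromosome 14 (19415799 to 19419278). The nearest gene, the pseudogene Gm9637, was 10.7 kb away. The single Ctrl peak had a fold of 1.20 and a -log10 q of 136. The 3 cKO peaks had folds of 1.42, 1.37 and 1.59 and a -log10 q of up to 488. The cKO peak that covered the Ctrl peak was 1257 bp wide, against 340 bp for the Ctrl peak inside it.

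The centromeric end of chromosome 9 held more clustered peaks than any other region. Its first peak began 0.331 kb past base 3 Mb, and 31 peaks lay over 37.9 kb (3000331 to 3038196) without a gene in the span. Mir101c, a microRNA gene, began 0.472 kb beyond the last peak, and the nearest protein-coding gene, Alkbh8, encoding a transfer RNA modifying enzyme, was 297 kb away. The 5 Ctrl peaks had folds of 1.14 to 1.22 and a -log10 q of 14.1 to 47.8. The 26 cKO peaks had folds of 1.13 to 1.61 and a -log10 q of 6.25 to 521. Every Ctrl peak here was overlapped by a cKO peak, with the cKO fold higher in each of the 5 pairs.

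**Figure D3:**
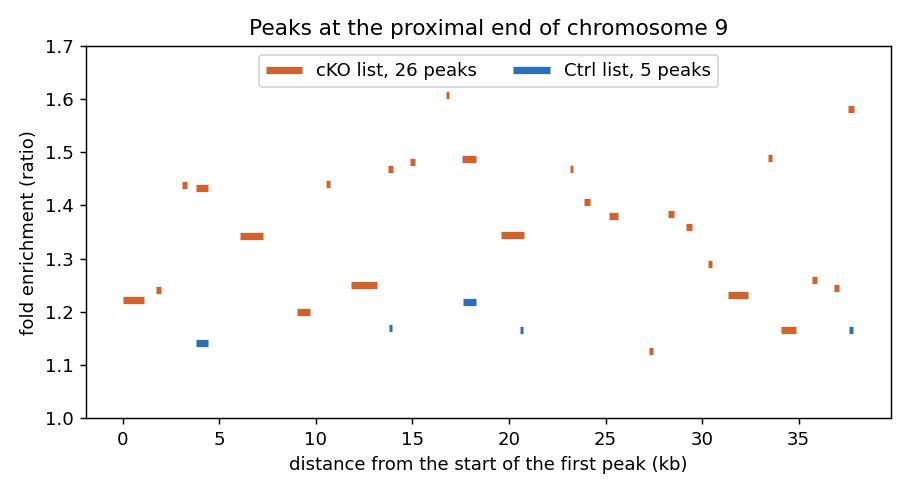
Peaks of the chromosome 9 region by distance from the region's start (horizontal axis, kb) and fold enrichment (vertical axis), Ctrl and cKO in separate colours. The 5 Ctrl peaks stand at 1.14 to 1.22 and the 26 cKO peaks at 1.13 to 1.61.

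At 4 other centromeric ends the peaks were fewer and the q-values weaker. On chromosome 10 (3109605 to 3134845), by the pseudogene Gm3318, the 2 Ctrl peaks had folds of 1.54 and 1.54 and both lay under cKO peaks, of folds 1.91 and 1.67. The other 4 cKO peaks had no Ctrl partner, with folds of 1.32 to 2.73. On chromosome 18 (3004571 to 3010470), 16.4 kb from the nearest gene, Vmn1r-ps151, a pseudogene of the vomeronasal type 1 receptors, all 3 Ctrl peaks were paired. Their folds were 1.60, 1.49 and 1.76, and the paired cKO folds were 2.07, 1.39 and 1.84. So the cKO fold was higher in 2 of those pairs and lower in 1.

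Chromosome 17 opened with peaks at Pisd-ps2, a transcribed pseudogene of the phosphatidylserine decarboxylase gene (3064318 to 3084183). In this region (3022820 to 3084478) the 3 Ctrl peaks had folds of 1.78, 1.90 and 2.09. The 2 paired cKO peaks had lower folds than their Ctrl partners, 1.69 and 1.79 against 1.78 and 2.09. Near base 3 Mb, 2 cKO peaks without a Ctrl partner reached 2.72 and 3.05. On chromosome 16 (3265435 to 3420568), with the pseudogene Gm3749 in the span, the 2 Ctrl peaks at folds of 2.56 and 2.49 and the 3 cKO peaks at 1.77, 2.15 and 2.84 did not overlap each other at any site.

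The longest region was the 677 kb of chromosome 8 (20028788 to 20705957) around the promoter copies described above. It held 5 Ctrl peaks with folds of 1.97 to 2.98 and 22 cKO peaks with folds of 1.65 to 2.82. Peaks of the cKO list fell inside the pseudogene Gm20778 (1 peak, fold 2.80), inside Gm15319 (3 peaks, folds 2.45, 2.48 and 2.36) and inside Gm21119 (1 peak, fold 2.19). No Ctrl peak fell inside these genes. Only 2 of the 5 Ctrl peaks were overlapped, with folds of 1.97 and 2.45 against 1.87 and 2.31 in cKO. The strongest cKO q-value here was at 20331172, outside Gm15319, with a -log10 q of 8.45 and a fold of 1.69.

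Zinc finger genes of chromosome 4 carried 2 regions. Such genes encode DNA-binding proteins, and the clustered ones of the KRAB class include repressors of transposable elements. In the larger region (147089100 to 147487530), 3 Ctrl peaks had folds of 3.08, 2.11 and 2.84 and 9 cKO peaks had folds of 1.92 to 2.77. None of the 3 Ctrl peaks was overlapped, and 0 lay inside a protein-coding gene. Peaks of cKO fell in Zfp978, Zfp982, Zfp991 and the pseudogene Gm13146, and at the Gm46898 promoter (fold 1.99). The Ctrl peak of fold 3.08, the one Ctrl member above 3, lay 2.10 kb from Gm13160 and had a -log10 q of 0.0093.

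The smaller zinc finger region (146544457 to 146602685) overlapped Zfp993 and the vomeronasal pseudogene Vmn2r-ps16. It held 1 Ctrl peak of fold 2.31, covered by a cKO peak of fold 2.46. The other 2 cKO peaks had folds of 2.49 and 2.28. The -log10 q was at most 0.791 in both zinc finger regions, so no peak there had q under 0.05.

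At the imprinted locus of Snhg14 on chromosome 7, all 13 clustered peaks lay inside a noncoding transcript. Snhg14 is a long host transcript for small nucleolar RNAs, read from the paternal chromosome in brain, and its SNORD116 segment is lost in Prader-Willi syndrome. The region (59748095 to 59890987) lay wholly within Snhg14 (59272737 to 60450177), a gene of 1177 kb with 206 annotated snoRNA genes. The 3 Ctrl peaks had folds of 2.29, 1.88 and 2.88, and the 10 cKO peaks had folds of 1.72 to 2.76. One Ctrl peak, of fold 1.88, was overlapped, by the cKO peak of fold 1.72.

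The span held 37 snoRNA genes, 11 of them named Snord116, at a median step of 2525.5 bp. One of the 13 peaks, a Ctrl peak at Gm26246, overlapped a snoRNA gene, and the share expected from position alone was not computed. A stretch of 78866 bp between the 2 groups of peaks had no clustered peak. The longest step between snoRNA starts within the span, 52219 bp, lay inside that stretch, and Snhg14 had longer steps outside the span. The strongest q-value in this locus belonged to a cKO peak at 59771503, with a fold of 2.51 and a -log10 q of 5.42. Over the whole of Snhg14 there were 3 Ctrl and 12 cKO peaks, so all but 2 cKO peaks were clustered.

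**Figure D4:**
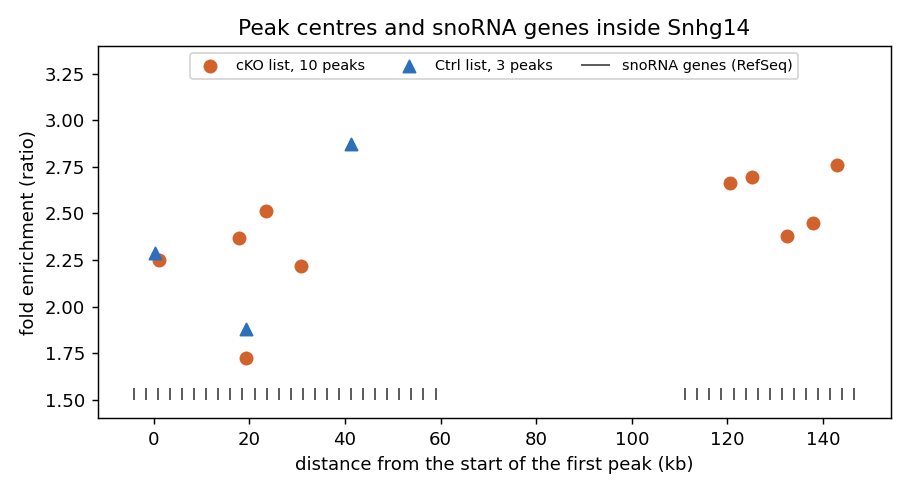
Peaks of the Snhg14 region by distance from the region's start (horizontal axis, kb) and fold enrichment (vertical axis), with annotated snoRNA genes as ticks. The 3 Ctrl and 10 cKO peaks fall in 2 groups either side of 78866 bp without a clustered peak.

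Clustered peaks of both lists were also found at the Ugt1a, Pramel and Ly6 families. At the Ugt1a cluster of chromosome 1 (88217325 to 88301322), whose overlapping genes encode enzymes that conjugate bilirubin and drugs, 9 Ugt1a genes shared the same 2 cKO peaks, of folds 2.06 and 2.07. The next gene, Mroh2a, held a Ctrl peak of fold 1.99 and a cKO peak of fold 2.12 that lay 17243 bp apart. The last 2 cKO peaks, nearest to Hjurp and Trpm8, had folds of 2.35 and 1.95. At Pramel42 on chromosome 5 (94526284 to 94538367), of a family expressed mainly in germ cells and the early embryo, the Ctrl peak had a fold of 2.88 and the cKO peak inside the gene 2.92. These peaks did not overlap. The whole Pramel region (94462597 to 94552692) held 1 Ctrl and 4 cKO peaks. Those outside the gene were of cKO, with folds of 2.65, 2.79 and 2.75.

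The Ly6 region of chromosome 15 (75085512 to 75168776) was the one with more Ctrl than cKO peaks. Ly6 genes encode small surface proteins of blood cells, among them the monocyte and neutrophil markers Ly6c2 and Ly6g. Of the 3 Ctrl peaks, those of fold 1.74 and 1.28 were overlapped by cKO peaks of fold 1.48 and 1.35. The first pair began at the same base, 75085512. The third Ctrl peak, of fold 2.63 and nearest to Ly6g, had its nearest cKO peak 81276 bp away.

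At other family genes the clustered peaks were from cKO alone. Around Prl2c3 on chromosome 13 (12795660 to 12921101), a placental prolactin-related hormone gene, 5 cKO peaks had folds of 3.01, 2.48, 2.82, 2.86 and 2.90, the first inside the gene. At Tsen34, Pira1 and the pseudogene Gm15925 on chromosome 7 (3699587 to 3799230), by the paired immunoglobulin-like receptors of immune cells, 4 cKO peaks had folds of 2.36 to 2.88. A single cKO member of fold 2.71 lay 7.20 kb from Mup17, a major urinary protein gene of chromosome 4. A gene of the serine protease group, Prss36, held 1 of the 2 clustered cKO peaks in its region, whose folds were 2.27 and 2.45, and another cKO peak in the span, of fold 3.00, was not a member.

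Several regions with both lists lay at genes of no listed family. Pdia3 on chromosome 2, encoding a protein disulfide isomerase of the endoplasmic reticulum, had a Ctrl peak of fold 2.80 and a cKO peak of fold 2.65. Both began at base 121436567, inside the gene. The other 3 cKO peaks of that region, 2 of which lay in Ppip5k1 and Wdr76, had folds of 2.395, 2.42 and 2.59. At Gm51572 on chromosome 8 (55118424 to 55121522), the Ctrl folds were 1.86 and 1.80 and the cKO folds 1.88 and 2.14, with the first of each overlapping.

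On chromosome 10 a small region (58224619 to 58239609) surrounded Duxf3, a double homeobox gene of the family that acts at the first activation of the embryonic genome. Its Ctrl peak of fold 1.75 and a cKO peak of fold 1.80 began at the same base, 58239174, in Gm9919. A cKO peak of fold 1.78 lay in LOC100504180. The cKO peak nearest to Duxf3 had a fold of 2.32 and did not touch it.

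The widest clustered peak was found at 2700054A10Rik, a long noncoding RNA gene of chromosome 17. In this region (13550718 to 13654862) a cKO peak of 2360 bp had a fold of 1.47 and a -log10 q of 47.0, and it covered a Ctrl peak of 290 bp with a fold of 1.28 and a -log10 q of 8.40. The second widest cKO peak, of 1574 bp, lay in the same region with a fold of 1.45. Both stand above the 310 bp that was the median width of clustered cKO peaks.

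The X chromosome had 5 regions, and the clustered peaks of all 5 were from cKO. The region of 9 peaks (170809606 to 170857088) lay 132 kb from Asmt, the gene of the last enzyme of melatonin synthesis, with no gene in its span. Its folds, 1.68 to 2.32, were the lowest among regions with clustered peaks of cKO alone. A second gene-free region of 7 peaks (94878955 to 94972737), nearest to the pseudogene Gm371, had folds of 2.46 to 2.93. The third (8007421 to 8231268) was gene-dense. Its 5 clustered peaks had folds of 3.15, 2.64, 2.60, 3.05 and 2.83, with 1 in Glod5 and 1 in Ebp, a sterol isomerase gene of cholesterol synthesis. Its span also held an overlapping Ctrl and cKO pair that was not clustered, with folds of 2.66 and 2.94. Gm6184 and Gm21420, 2 pseudogenes, lay by the remaining X regions of 2 and 1 peaks.

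Regions with clustered peaks of cKO alone held 72 members with a median fold of 2.71, of which 16 (22.2%) had q under 0.05. The 118 cKO members in regions of both lists had a median fold of 1.85, and 56 (47.5%) had q under 0.05. Without the regions of chromosomes 2, 9 and 14, 86 such members had a median fold of 2.14, and 24 (27.9%) had q under 0.05. Much of the difference in q-values thus rests on those 3 regions, whereas the median fold stayed below 2.71 without them. This split rests on the counts that the rule itself used, so it is a description. A fold of at least 3 was given to 17 members in 12 regions, 16 of cKO and 1 of Ctrl. Of these, 15 lay in regions with clustered peaks of cKO alone and 0 overlapped a peak of the other list. Over all peaks, 2.81% of cKO and 42.4% of Ctrl peaks did, and of the clustered cKO peaks 13.2% did. Regions with clustered peaks of cKO alone hold no clustered Ctrl peak, so few overlaps there follow largely from the split. Whether overlap differs with fold was not tested. The share of all peaks with a fold of at least 3 is not given here.

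The 5 highest folds of the clustered peaks lay in or near Stk38, Borcs5, Agpat5 and Gm39490, with 2 of the 5 inside a gene. At Stk38 on chromosome 17, a serine/threonine kinase gene, a cKO peak inside the gene had a fold of 4.57 and another 0.793 kb from it a fold of 3.77. The 3 other peaks of that region (28919003 to 29104531) had folds of 2.78, 2.48 and 2.30, the last 3.57 kb from Cdkn1a, the gene of the cell cycle inhibitor p21. A lone member on chromosome 11, 0.902 kb from Gm39490, had a fold of 4.16. At Borcs5 on chromosome 6, encoding a subunit of a complex that moves lysosomes, 2 cKO peaks had folds of 3.12 and 4.13. Next to it, 2 cKO peaks in Dusp16, a phosphatase gene of MAP kinases, had folds of 3.29 and 3.12. By Agpat5 on chromosome 8, an acyltransferase gene of phospholipid synthesis, the 2 folds were 3.75 and 2.55.

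The other regions with clustered peaks of cKO alone held 1 to 4 clustered peaks each. At Tango2 on chromosome 16 the folds of 4 peaks ran from 2.26 to 3.24. By Ythdf2, a reader of methylated adenosine in RNA, and Gmeb1 on chromosome 4 they ran from 2.17 to 3.13. Between Mcee on chromosome 7 and the neuronal adaptor gene Apba2, 4 peaks had folds of 1.99 to 3.06. The 3 peaks at Pkp3, Ano9 and Rnh1 on chromosome 7 had folds of 2.39 to 2.99. The 2 clustered peaks by Coa7 on chromosome 4 had 2.91 and 2.94. The remaining single members lay in Mmachc (2.48), Gm42118 (2.66), Atp5b (2.89), Tekt1 (2.89) and Kcnk4 (2.75), and outside genes nearest to 4930511E03Rik (3.59) and Pthlh (2.85).

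Overlap between the lists was common among clustered Ctrl peaks. Of 40, 25 were overlapped by at least 1 bp by a cKO peak (62.5%, Wilson 95% interval 47.0 to 75.8%, all Ctrl peaks 42.4%). In the cKO list 25 of 190 members (13.2%, all cKO peaks 2.81%) were overlapped. The 25 pairs lay in 14 regions and shared 9205 bp. The 15 Ctrl members without overlap had their nearest cKO peak 546 to 89935 bp away, at a median of 11544 bp, and 1 of them had q under 0.05. The members were required to have close neighbours of either list, so these shares were not tested. An overlapping cKO peak itself counted as a neighbour, and the Wilson interval treats neighbouring peaks as independent.

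Within pairs the cKO peak was wider in 20 of 25 and wholly covered the Ctrl peak in 18. Its fold was higher in 17 and lower in 8. The ratio of cKO to Ctrl fold had a median of 1.07 (interval 0.949 to 1.15) and ran from 0.848 to 1.36. This interval treats the pairs as independent, although they lay in 14 regions and came from 1 list per genotype. In the 3 regions of highest -log10 q the cKO fold was higher in 8 of 8 pairs, at ratios of 1.12 to 1.36. In the other 17 pairs it was higher in 9 and lower in 8, with a median of 1.01. For comparison, 38 pairs outside clusters had a median ratio of 1.13, with cKO higher in 30, and 36 pairs in the larger regions had 1.01, with cKO higher in 20. Each list was scored against its own background, so a ratio does not measure a difference in the mark itself.

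**Figure D5:**
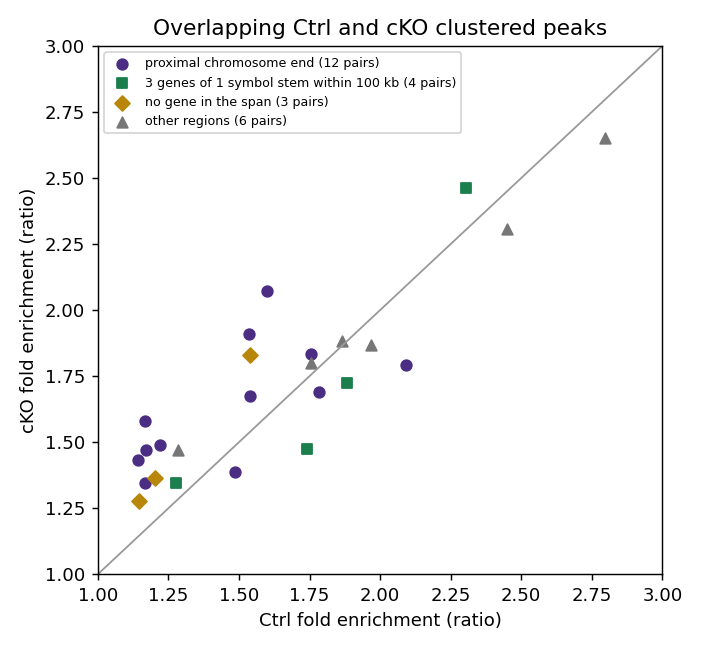
Fold of the Ctrl peak (horizontal axis) against fold of the overlapping cKO peak (vertical axis) for the 25 pairs, with the line of equality and 1 symbol per kind of region. The 8 pairs of the chromosome 2, 9 and 14 regions lie above the line, and the other 17 fall 9 above and 8 below it.

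The count of neighbours set the edge of the set. The 9 Ctrl members with exactly 3 neighbours had a median fold of 1.86, and the 19 Ctrl peaks with 2, just outside, had 2.44. For cKO the 61 peaks just inside had 2.60 and the 208 just outside 2.87. The Ctrl members also rest on the other list. When neighbours were counted within the same list, 5 Ctrl peaks remained, all in the chromosome 9 region, and 165 cKO peaks.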

How the data were processed

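The members, gene lists and descriptions were chosen with earlier results of these data known. Cutadapt, Bowtie2 2.4.4, MACS2 and the build mm10 were named without roles or settings, per the submitters' processing notes. The deposited peaks came as 1 broad list for Ctrl and 1 for cKO, each cited by all 6 libraries, per the labels; the sources used here do not say whether reads were pooled. Peak names in the deposited control list read WT, whereas the labels gave floxed controls.

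The deposited fold is the caller's ratio of signal to local background. The -log10 p and -log10 q deposited by the authors are also the caller's, and the lowest -log10 p was 3.08 in Ctrl and 3.02 in cKO. The score deposited by the authors was read and not used. Depth was unknown.

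Positions were made 1-based on chromosomes 1 to 19, X and Y. Clustered peaks, regions and overlaps of at least 1 bp were computed with Python 3.11.15, pandas 2.3.3, numpy 2.4.6 and scipy 1.17.1. Genes and promoter windows (250 bases before to 50 after each start) came from RefSeq GRCm38.p6. Named were regions with peaks of both lists or at least 5 peaks, up to 4 genes in each, the 5 highest and widest peaks per list, and protein-coding genes with peaks of both lists; the remaining regions were added for completeness. The procedure was tested on simulated lists. Alternatives changed the neighbour count, distance, join, overlap, q-value and list rules.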

Additional observations from a re-analysis of the deposited data

How the results depend on the processing

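No paired analysis was possible because libraries carried no values of their own, and for the same reason no replicate could be left out. Of 45 recomputed values, 26 moved by less than the limits set for them and 19 moved further. The limit was a fixed ratio for counts and the 95% interval for the overlap share and median folds. Values within these limits could still change. With at least 4 neighbours there were 21 regions and the cKO median fold was 2.00. The 129 cKO members and 12 regions with both lists found there, against 190 and 18, stayed within the limits. With neighbours within 50 kb there were 126 cKO members, 25 regions and a cKO median fold of 1.87. With peaks of -log10 q of at least 2 alone there were 10 Ctrl and 35 cKO members in 5 regions, 4 with both lists, 100% of Ctrl members were overlapped, and the median folds were 1.19 and 1.41. With neighbours of the same list there were 5 Ctrl members, 1 region with both lists, 100% overlapped and a Ctrl median fold of 1.17. With the 4 larger regions put back, chosen after seeing the data, there were 115 Ctrl and 288 cKO members and a cKO median fold of 2.06. Leaving out the chromosome 9 region, joining under 100 kb and a 50% overlap moved none of the values beyond those limits. The share of overlapped Ctrl members was still lower when 50% of both peaks had to overlap, at 50% against 62.5%. Depth per list was unknown, so the number of peaks called in each list carries that limit.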
